A study of Mus musculus with 12 samples.

Results

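The 10 genes described here encode secretory products and regulators of colonic goblet cells: *Muc2*, *Tff3*, *Spink4*, *Agr2*, *Fcgbp*, *Zg16*, *Clca1*, *Retnlb*, *Spdef* and *Atoh1*. They were taken by gene symbol from the 47632 genes of each of 3 deposited tables, and every symbol matched 1 row in each table. 5 of them (*Tff3*, *Spink4*, *Agr2*, *Zg16* and *Retnlb*) have short transcripts and encode small secreted or endoplasmic reticulum proteins, and the other 5 encode the large mucus proteins *Muc2*, *Fcgbp* and *Clca1* and the transcription factors *Spdef* and *Atoh1*. Under DSS injury the 5 short transcripts were 3.58-fold to 13.3-fold lower on Day 4 in epithelium without *Tfeb* (*Tfeb* ΔIEC) than in that of floxed controls (*Tfeb* flox/flox), whereas *Muc2* was 2.94-fold higher and *Clca1* was 3.01-fold higher. *Fcgbp*, with the longest annotated transcript of the 10, was 10.9-fold lower. *Spdef* differed by 1.20-fold and *Atoh1* by 2.03-fold, both in the direction of higher values in ΔIEC animals.

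Goblet cells are the mucus-secreting cells of the intestinal epithelium. They pack gel-forming mucin into granules, and the released mucin swells into the layer that keeps bacteria away from the epithelial surface, together with trefoil peptides, lectins and other granule proteins. *Atoh1* commits an intestinal progenitor to the secretory lineage, and *Spdef* acts after it in the maturation of goblet cells. Dextran sodium sulfate (DSS) in the drinking water injures the colonic epithelium, and goblet cell products are widely used as a readout of the mucus barrier in that model.

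RNA-seq was done on epithelial cells released from mouse colon with EDTA, with 2 animals per group and 12 animals in all, of strain C57/BL6. *Tfeb* flox/flox animals, labelled WT, carry 2 floxed *Tfeb* alleles, and *Tfeb* ΔIEC animals, labelled KO, carry the same floxed alleles plus a Cre transgene under the villin promoter, which is active throughout the intestinal epithelium and is not particular to goblet cells. Cells were collected on Day 0 (before injury; animals of 10 and 12 weeks in both genotypes), on Day 4 (12 weeks) and on Day 11 (10 weeks) of a course of DSS, at 2.5% by the labels and at a lower concentration by the published methods, which also place Day 11 in the period of plain water after DSS. For each day the authors deposited 1 pooled value per gene and genotype in FPKM (fragments for each kilobase of a transcript, relative to the size of the library), made from both animals. The unit is taken from the layout of the tables, which is that of Cuffdiff, since the methods do not name it. The tables give no value per animal and no error, and the test results that the authors deposited beside the values were not used, so the differences below are given without a replicate check or a test. A difference is given as ΔIEC minus flox/flox in log2(FPKM + 1), a scale on which differences of weakly expressed genes come out too small, and fold values of single genes are ratios of the FPKM themselves. Counts and shares of genes at least 2-fold or 4-fold lower or higher were made on the log2(FPKM + 1) scale, as a difference of at least 1 or 2, so a gene with low values can have an FPKM ratio past 2 and still not be counted.

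Several properties of the tables bear on these genes. The 6 pooled columns had 11768 to 13187 genes above 0, and the number of reads behind them is unknown. *Tfeb* itself was at 0.901 FPKM in flox/flox and 0.185 in ΔIEC animals on Day 0, at 1.08 and 0 on Day 4, and at 1.18 and 0 on Day 11. The general epithelial markers *Epcam*, *Cdh1*, *Krt8*, *Krt18*, *Krt19* and *Vil1* summed to 5593 to 10349 FPKM across the 6 columns. On Day 4, 2 of the 6 were at least 2-fold higher in ΔIEC animals (*Cdh1* at 24.5 and 164 FPKM, *Vil1* at 30.6 and 224) and 0 were lower. Of the 9371 genes with at least 1 FPKM in either genotype, 25.6% were higher and 26.1% lower. The 10 immune markers summed to 2.20 to 4.61 and 8 stromal markers to 2.37 to 5.38. Days 4 and 11 are labelled as different animals, yet among genes of at least 1 FPKM on both days 8.38% of 7379 genes in flox/flox and 3.57% of 7766 genes in ΔIEC had exactly the same value, and the median gene differed by 4.74% and 5.52%. Only 1.84% and 1.61% of those genes lay at least 1.5-fold apart, so Day 11 was read as a repeat of the Day 4 pattern and not as separate support for it. Finally, the difference between genotypes followed transcript length across the whole transcriptome: its median over genes from 200 nt to under 1000 nt was -0.71 on Day 0 and -1.28 on Day 4, against 0.29 and 0.63 over genes from 2000 nt to under 4000 nt. The counts of the 5 short transcripts are therefore set beside genes of like length.

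The coding sequences of *Tff3* and *Spink4* are shown because these short secreted peptides had the largest differences among the 5 short transcripts on Day 4. *Tff3* is a trefoil peptide that is secreted with mucin and favours epithelial repair, and *Spink4* is a Kazal-type protease inhibitor that marks goblet cells. Both were read from GENCODE M21 on GRCm38 (mm10), 5′ to 3′ on the coding strand, and capitals mark the cysteine codons in frame (TGT or TGC), which make up 7 of 81 codons before the stop in *Tff3* and 6 of 86 in *Spink4*.
Tff3: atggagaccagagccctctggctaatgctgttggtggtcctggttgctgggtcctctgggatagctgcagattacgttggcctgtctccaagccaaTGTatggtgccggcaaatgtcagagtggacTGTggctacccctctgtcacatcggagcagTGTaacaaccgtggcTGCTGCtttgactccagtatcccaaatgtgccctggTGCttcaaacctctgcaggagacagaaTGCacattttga
Spink4: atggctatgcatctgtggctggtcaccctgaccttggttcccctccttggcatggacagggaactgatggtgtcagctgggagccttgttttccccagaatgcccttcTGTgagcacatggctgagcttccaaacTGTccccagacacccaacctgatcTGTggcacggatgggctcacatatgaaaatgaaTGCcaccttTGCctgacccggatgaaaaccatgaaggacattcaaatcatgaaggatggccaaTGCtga
Cysteine codons made up 8.64% of the codons of *Tff3* and 8.44% (218 of 2583) of those of the large mucus protein gene *Fcgbp*, and *Retnlb* held 12 in 105. *Agr2* held 1 in 175 codons and *Zg16* held 3 in 167, so the 5 short transcripts do not share this feature.

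The trefoil peptide gene *Tff3* (chr17:31125306-31129646, minus strand, 493 nt transcript) had 3909 FPKM in flox/flox and 1277 in ΔIEC animals on Day 0, 28759 and 2166 on Day 4, and 29108 and 2156 on Day 11. It was 3.06-fold lower in ΔIEC animals before injury, 13.3-fold lower on Day 4 and 13.5-fold lower on Day 11. The flox/flox columns of Days 4 and 11 stood far above the other 4 values, which lay within a range from 1277 to 3909. In flox/flox animals *Tff3* was the 7th gene of the whole table on Days 4 and 11, and in ΔIEC animals it was the 42nd and 43rd.

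*Spink4* (chr4:40920052-40931395, plus strand, 397 nt) was the most abundant of the 10 genes in every column except ΔIEC on Days 4 and 11, where *Zg16* had the higher FPKM. Its values were 17489.8 FPKM in flox/flox and 9475 in ΔIEC animals on Day 0, 71372 and 6468 on Day 4, and 76533 and 6628 on Day 11. The differences were -0.88, -3.46 and -3.53, that is 1.85-fold, 11.03-fold and 11.5-fold lower in ΔIEC animals, the first of which became 0.19 once the trend over length was subtracted. Among all genes *Spink4* had the second highest FPKM in flox/flox animals on Day 4 and the highest on Day 11.

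*Retnlb* (chr16:48816856-48818891, plus strand, 696 nt) encodes the resistin-like molecule RELMβ, a goblet cell protein that acts on bacteria in the lumen. It had 1133 FPKM in flox/flox and 528 in ΔIEC animals on Day 0, 3807 and 459 on Day 4, and 3791 and 439 on Day 11. Its profile over the 6 columns was closer to that of *Spink4* than any other pair among the 10 genes, with a root mean square distance of 0.19 in log2(FPKM + 1) after each gene was centred on its own mean. The ΔIEC values lay within a narrow range on all 3 days, below every flox/flox value.

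*Zg16* (chr7:127050156-127087328, minus strand, 659 nt median transcript) encodes a lectin of the mucus layer that binds the wall of Gram-positive bacteria. Its FPKM was 9126 in flox/flox and 4930.3 in ΔIEC animals on Day 0, 34794 and 7393 on Day 4, and 34086 and 7195 on Day 11. It was 1.85-fold, 4.71-fold and 4.74-fold lower in ΔIEC animals.

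*Agr2* (chr12:35992907-36004087, plus strand, 784 nt), a protein disulfide isomerase of the endoplasmic reticulum needed for the folding of *Muc2*, showed the smallest difference of the 5 short transcripts on each day. The values were 7689 FPKM in flox/flox and 5290.4 in ΔIEC animals on Day 0, 12286 and 3436 on Day 4, and 11910.4 and 3419 on Day 11. *Agr2* was thus 1.45-fold lower in ΔIEC animals on Day 0, 3.58-fold lower on Day 4 and 3.48-fold lower on Day 11. Its differences of -1.84 and -1.80 on Days 4 and 11 became -0.75 and -0.71 under division by the column sums and -0.86 and -0.85 once the trend over length was subtracted, which in both cases is under 2-fold. For each of the 5 short transcripts, both flox/flox values of Days 4 and 11 stood above the flox/flox value of Day 0, and all 3 ΔIEC values stood below all 3 flox/flox values as deposited, although the days were scaled separately.

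**Figure D1:**
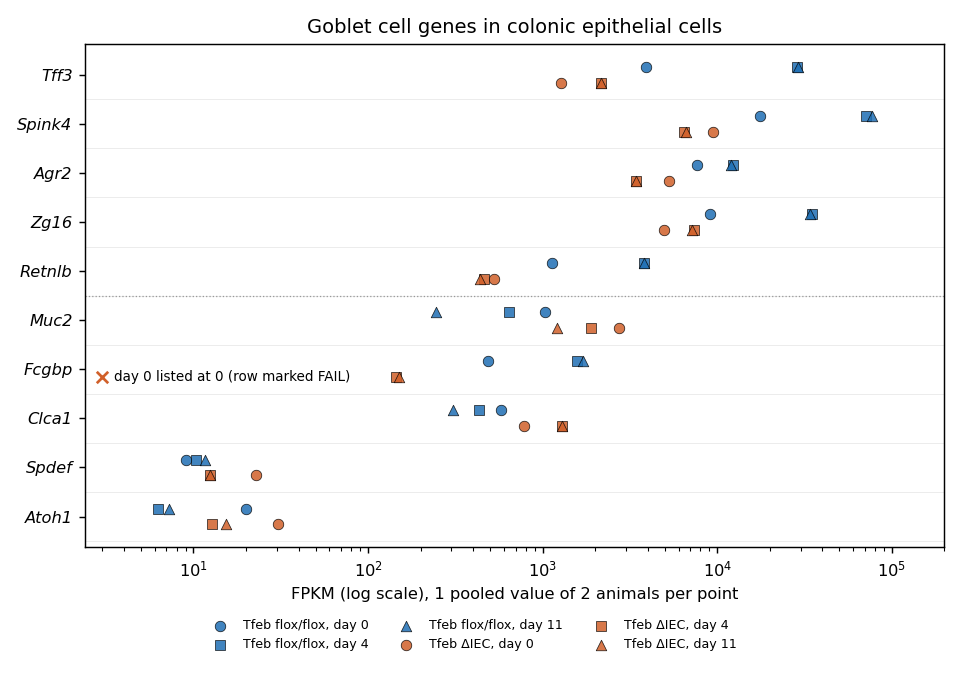
FPKM of the 10 genes on a log axis, with 1 point per pooled value of 2 animals, coloured by genotype and shaped by day, and the short transcripts above the dotted line. The short transcripts and *Fcgbp* lie lower in ΔIEC (orange) than in flox/flox (blue) animals on every day with a usable value, while *Muc2*, *Clca1*, *Spdef* and *Atoh1* lie higher; of these deposited directions, 3 change sign once the trend over length is subtracted (*Spink4* and *Agr2* on Day 0, *Spdef* on Day 11).

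*Muc2*, the gel-forming mucin that builds the colonic mucus layer, stood on the other side. It had 1034 FPKM in flox/flox and 2744 in ΔIEC animals on Day 0, 645 and 1894 on Day 4, and 244 and 1203 on Day 11. Every ΔIEC value was above every flox/flox value, and *Muc2* was 2.65-fold, 2.94-fold and 4.92-fold higher in ΔIEC animals. The deposited locus (chr7:141744612-141754693, plus strand) covers 10082 bases, or 15.7%, of the 64354 bases of *Muc2* in GENCODE M21, which marks the gene as fragmented in this assembly, so the value stands for the 3′ part of the gene and the annotated transcripts (711 nt median, 2032 nt at most) are pieces of a much longer mRNA. *Muc2* also broke the near identity of Days 4 and 11: its FPKM changed by -62.1% from Day 4 to Day 11 in flox/flox animals, the largest relative difference among 745 genes of at least 100 FPKM, and by -36.5% in ΔIEC animals, the third largest among 582.

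*Fcgbp* (chr7:28071236-28120862, plus strand, 7927 nt) encodes the IgG Fc binding protein, a large cysteine-rich protein that is bound to *Muc2* in mucus. It was listed at 484 FPKM in flox/flox and at 0 in ΔIEC animals on Day 0, in the single row of that table whose status is given as a failed estimate, so no fold is given for that day. On Day 4 it had 1579 FPKM in flox/flox and 145 in ΔIEC animals, and on Day 11 it had 1709 and 149.5, which is 10.9-fold and 11.4-fold lower. This difference of -3.43 on Day 4 was lower than in all but 1.98% of all genes, although the median over genes of 4000 nt and longer was 0.46. Of the 50-base sequences of the *Fcgbp* transcript, 91.4% were found in no other annotated gene and the rest were shared with *9530053A07Rik*, so reads of these genes can be split between them, and for each of the other 9 genes the share was 100%.

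*Clca1* (chr3:145003817-145032776, minus strand, 3655 nt), a secreted metalloprotease that processes *Muc2* in mucus, had 581 FPKM in flox/flox and 777 in ΔIEC animals on Day 0, 432 and 1298 on Day 4, and 307 and 1298 on Day 11. It was 1.34-fold higher in ΔIEC animals before injury and 3.01-fold and 4.22-fold higher on Days 4 and 11. The flox/flox value was the lowest on Day 11, whereas the ΔIEC values of Days 4 and 11 were the same within 0.1%.

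Both transcription factors had low values. *Spdef* (chr17:27714352-27728951, minus strand, 1708 nt median transcript) had 9.10 FPKM in flox/flox and 22.9 in ΔIEC animals on Day 0, 10.3 and 12.4 on Day 4, and 11.6 and 12.4 on Day 11. It was 2.52-fold higher in ΔIEC animals before injury, but only 1.20-fold higher on Day 4 and 1.07-fold higher on Day 11, and the last difference (0.09) changed sign to -0.19 once the trend over transcript length was subtracted. Division of each column by its sum over genes of at least 200 nt gave *Spdef* differences of 1.45, 1.25 and 1.10 for Days 0, 4 and 11, so on that scale it was past 2-fold on all 3 days and the days lay closer together. *Atoh1* (chr6:64729125-64731245, plus strand, 2121 nt) had 20.0 FPKM in flox/flox and 30.4 in ΔIEC animals on Day 0, 6.26 and 12.7 on Day 4, and 7.27 and 15.4 on Day 11. *Atoh1* was 1.52-fold, 2.03-fold and 2.11-fold higher in ΔIEC animals, so neither regulator had a lower deposited value in ΔIEC animals on any day.

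The members were next counted against the background of the same table. On Day 0, 3 of the 10 genes were at least 2-fold lower in ΔIEC animals (*Tff3*, *Retnlb* and *Fcgbp*, the last through its listed 0), beside 16.1% of 9993 genes with at least 1 FPKM in either genotype, and 2 were at least 2-fold higher (*Muc2* and *Spdef*), beside 13.5%. On Day 4, 6 of 10 were at least 2-fold lower, beside 26.1% of 9371 genes, and 2 were at least 2-fold higher, beside 25.6%. On Day 11 the counts were 6 and 2, beside 25.7% and 26.1% of 9365 genes. *Atoh1* was not counted on these days, since its differences of 0.91 and 0.99 lay under 1, although its FPKM ratios were 2.03 and 2.11. Counted by the FPKM ratio, or with a pseudocount of 0.1 FPKM, 6 members were lower and 3 were higher on Day 4 and on Day 11, and by the ratio 31.2% of all genes were lower and 33.4% higher on Day 4. All 10 genes reached 1 FPKM on each day. Of the genes that reached 10 FPKM in one genotype or the other, 39.9% were at least 2-fold lower on Day 4 and 26.9% were higher. Division of each column by its sum over genes of at least 200 nt turned the shares of all genes into 14.5% lower and 19.2% higher on Day 0, 14.2% and 47.2% on Day 4, and 13.8% and 48.0% on Day 11, and the members' counts of Day 4 into 5 and 4, with *Agr2* no longer among the lower genes and *Spdef* and *Atoh1* among the higher. The 6 lower genes on Days 4 and 11 were the 5 short transcripts and *Fcgbp*, and the 2 higher genes counted on the log2(FPKM + 1) scale were *Muc2* and *Clca1*.

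Against genes of their own length class the 5 short transcripts stood out less. Among genes from 200 nt to under 1000 nt, 40.4% were at least 2-fold lower on Day 0, 57.8% on Day 4 and 57% on Day 11, compared with 2, 5 and 5 of the 5 short transcripts. The median differences of the 5 short transcripts were -0.89, -3.05 and -3.11 for Days 0, 4 and 11, and that of all genes in the class was -0.71, -1.28 and -1.26. The class holds many genes with low values, so it was also restricted to a mean of at least 500 FPKM, which left 98 genes with a median of -1.09 on Day 0 and 148 genes with a median of -2.39 on Day 4. On Day 0 the median of the short transcripts was therefore less negative than that of abundant short genes, and on Day 4 it was more negative. When the running median over transcript length was subtracted, the Day 0 differences were -0.70 for *Tff3*, -0.45 for *Retnlb*, -0.13 for *Zg16*, 0.00 for *Agr2* and 0.19 for *Spink4*. On Day 4 they were -2.18 for *Tff3*, -1.82 for *Retnlb*, -1.56 for *Spink4*, -1.01 for *Zg16* and -0.86 for *Agr2*. Before injury, then, *Spink4*, *Agr2* and *Zg16* differed between genotypes about as much as other genes of their length did, and on Day 4 all 5 lay below the running median. Set beside the abundant genes of the class on Day 4 (-2.39), *Tff3*, *Spink4* and *Retnlb* were more negative, and *Zg16* (-2.23) and *Agr2* (-1.84) were not. The class is not matched in length to its shortest members such as *Spink4* and *Tff3*. Within it the running median on Day 4 went from -2.19 at 250 nt to -0.64 at 985.6 nt. No genes matched in both length and abundance were compared. Library size, RNA quality and fragment length are not given in the sources used here, and their part in the length trend was not tested.

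The same subtraction left *Fcgbp* at -3.54, *Muc2* at 2.71, *Clca1* at 0.97, *Atoh1* at 0.42 and *Spdef* at 0.01 on Day 4. Of these, the value for *Muc2* assumes its annotated 711 nt, a length at which most genes were lower in ΔIEC animals. At the threshold of 4-fold, 5 of the 10 genes were lower in ΔIEC animals on Day 4 (*Tff3*, *Spink4*, *Retnlb*, *Zg16* and *Fcgbp*), beside 10.3% of all genes and 30% of genes from 200 nt to under 1000 nt. None of the 10 was 4-fold higher on Day 4, beside 7.36% of all genes, and 2 were on Day 11 (*Muc2* and *Clca1*), beside 7.46%.

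**Figure D2:**
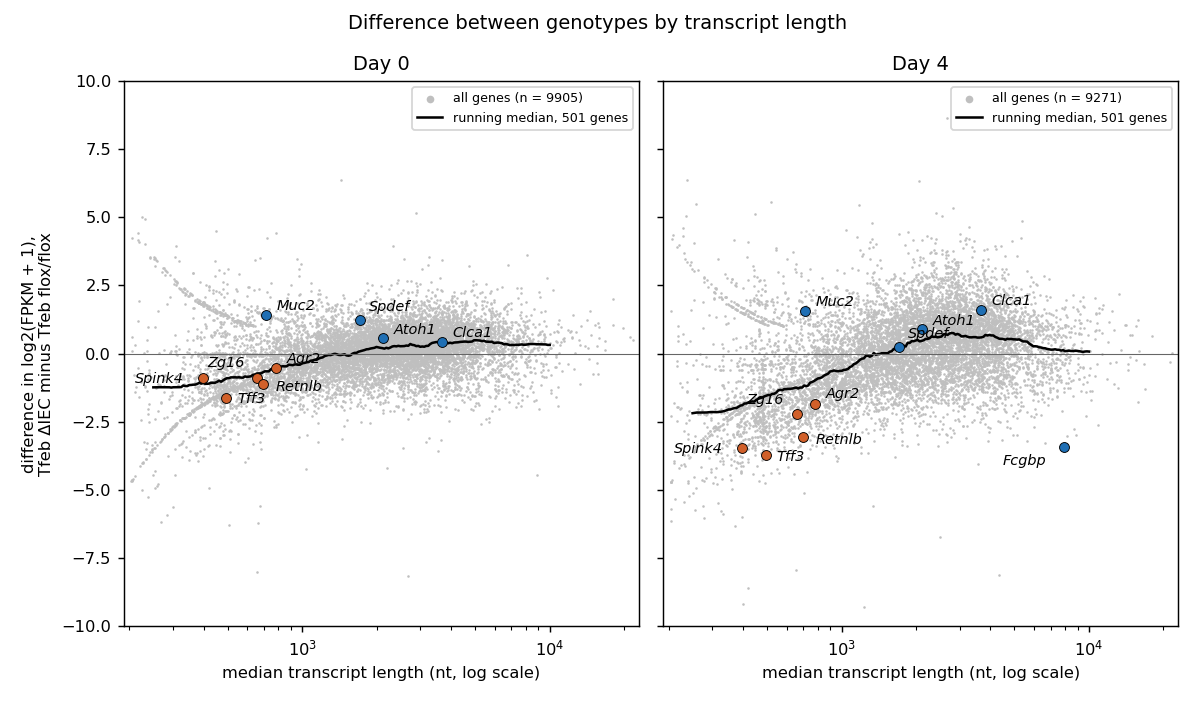
Difference between genotypes in log2(FPKM + 1) against median annotated transcript length on a log axis, on Day 0 and Day 4, for all genes of at least 200 nt and 1 FPKM (grey), with their running median over 501 genes (black), the 5 short transcripts (orange) and the other members (blue). On Day 0 *Spink4*, *Zg16* and *Agr2* lie near the black line and *Tff3* and *Retnlb* below it, and on Day 4 all 5 lie below it, with *Fcgbp* far below and *Muc2* above; *Fcgbp* is not drawn on Day 0, and *Muc2* is drawn at the length of its annotated pieces.

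The next comparison set Day 4 beside Day 0 within each genotype. These values come from tables that were normalized separately, and no animal was sampled on both days. In flox/flox animals the 5 short transcripts were higher on Day 4, with a median difference of 1.93 and a range from 0.68 for *Agr2* to 2.88 for *Tff3*, although *Agr2* went to -0.01 under division by the column sums. *Tff3* was 7.36-fold, *Spink4* 4.08-fold, *Zg16* 3.81-fold and *Retnlb* 3.36-fold higher, and *Agr2* was 1.60-fold higher. Thus 4 of the 5 were at least 2-fold higher, beside 17.5% of 9617 genes, and the median over genes from 200 nt to under 1000 nt was 0.52, with 37.1% of that class at least 2-fold higher. Division by the column sums turned that share of 17.5% higher and one of 25.7% lower into 9.59% and 39.95%, and moved the median of all genes by -0.52. *Fcgbp* was listed at 484 FPKM on Day 0 and at 1579 on Day 4 in flox/flox animals, but its Day 0 row failed, so no fold is given. *Muc2*, by contrast, was 1.60-fold lower, *Clca1* was 1.34-fold lower and *Atoh1* was 3.19-fold lower, while *Spdef* was 1.13-fold higher; the signs of *Clca1* under the running median over length (0.03) and of *Spdef* under division by the column sums (-0.45) were the other way.

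In ΔIEC animals the short transcripts had no common direction between Day 0 and Day 4. *Tff3* was 1.70-fold and *Zg16* 1.50-fold higher on Day 4, whereas *Spink4* was 1.46-fold, *Agr2* 1.54-fold and *Retnlb* 1.15-fold lower. Their median difference was -0.20, beside -0.17 for genes from 200 nt to under 1000 nt, and its sign, set by *Retnlb*, turned under division by the column sums and under centring. None of the 5 was 2-fold apart in either direction, beside 9.26% of all genes that were at least 2-fold higher and 15.6% that were lower, and 18.4% and 21.6% of genes from 200 nt to under 1000 nt. Of the other genes, *Muc2* was 1.45-fold, *Spdef* 1.85-fold and *Atoh1* 2.40-fold lower, and *Clca1* was 1.67-fold higher. Day 4 was lower than Day 0 in both genotypes for *Muc2* and *Atoh1*, and higher in both for *Tff3* and *Zg16*. The difference of the differences between genotypes was -2.12 for *Tff3* and -1.35 for *Zg16*, and no test of it was possible with 1 value per cell of the design.

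**Figure D3:**
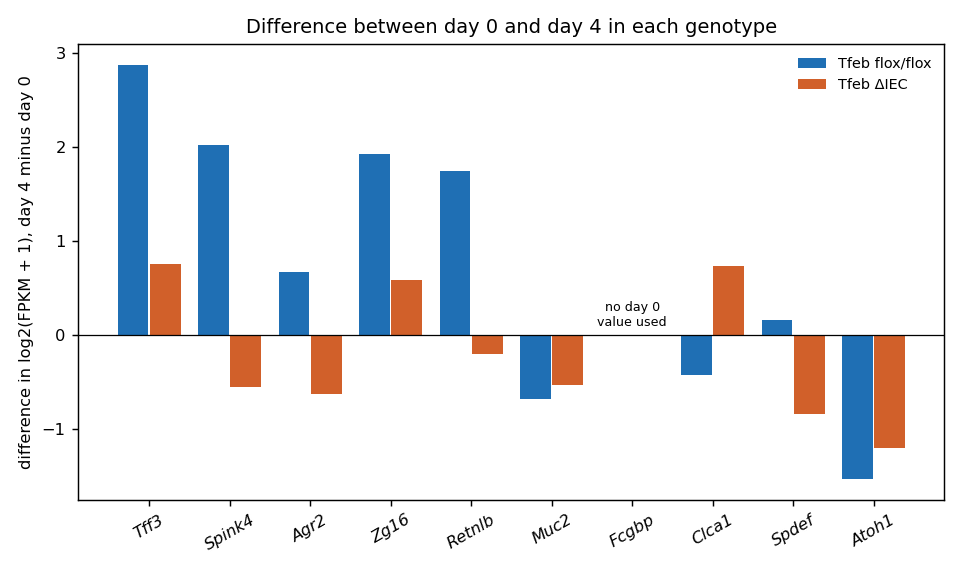
Difference in log2(FPKM + 1) between Day 4 and Day 0 for each gene in flox/flox (blue) and ΔIEC (orange) animals, from pooled values of 2 animals each. The 5 short transcripts lie between 0.68 and 2.88 in flox/flox animals and between -0.62 and 0.76 in ΔIEC animals; no bar is drawn for *Fcgbp* because its Day 0 row failed.

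Summed over the 10 genes, goblet cell transcripts made up 4.25% of the summed FPKM of all genes in flox/flox animals on Day 0, 10.5% on Day 4 and 10.7% on Day 11. The corresponding ΔIEC shares were 2.57%, 2.84% and 2.72%. Most of it came from the 5 short transcripts, which took 10.3% in flox/flox and 2.43% in ΔIEC animals on Day 4. The sum itself differed between genotypes, at 1464720 FPKM in flox/flox and 820344 in ΔIEC animals on Day 4 against 975316 and 973878 on Day 0, and over genes of at least 200 nt it was 1273830 and 599081 on Day 4 and 793596 and 694062 on Day 0. Dividing each column by the latter sum, the scaling by column sums used here, moved the median difference of all genes up by 0.83 on Day 4 and by 0.17 on Day 0. The ratio of *Tff3* to *Muc2* within a column, which no scaling of the column changes, was 3.78 in flox/flox and 0.465 in ΔIEC animals on Day 0, 44.6 and 1.14 on Day 4, and 119 and 1.79 on Day 11. In these bulk samples, for the short transcripts and *Fcgbp*, fewer goblet cells and less of their RNA per goblet cell cannot be told apart. The short transcripts also lie on the trend over transcript length. *Muc2*, *Clca1* and *Atoh1* were 2.94-fold, 3.01-fold and 2.03-fold higher in ΔIEC animals on Day 4. The part of cell number, RNA per cell and the length trend in these differences was not tested.

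**Figure D4:**
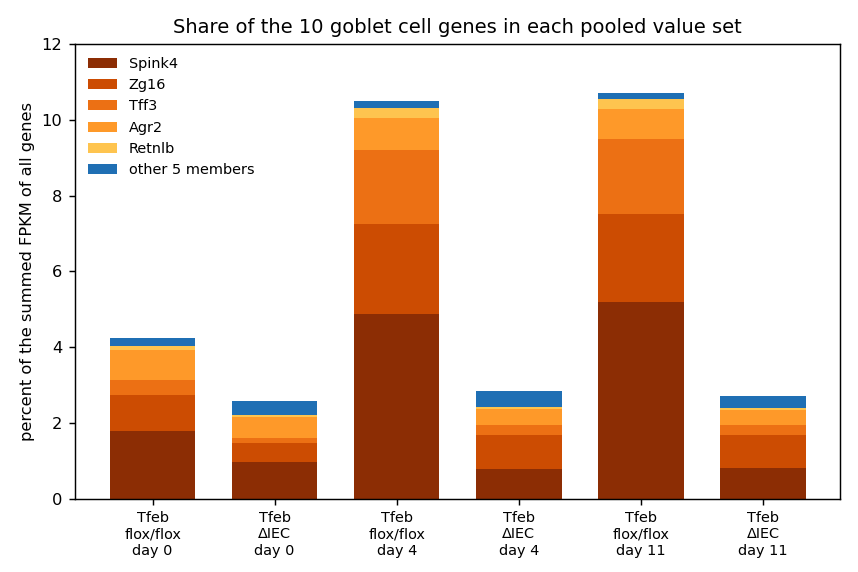
Share of the summed FPKM of all genes taken by each of the 5 short transcripts and by the other 5 genes together, in the 6 pooled value sets, on a linear axis from 0. The bars reach 10.5% and 10.7% in flox/flox animals on Days 4 and 11 and stay between 2.57% and 4.25% in the other 4 sets.

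Markers of the other cell types that the preparation could hold were counted in the same way. Of 8 colonocyte markers, 3 were at least 2-fold lower in ΔIEC animals on Day 0, beside 16.1% of all genes, and 1 was lower and 3 were higher on Day 4, beside 26.1% and 25.6%, with sums of 27375 FPKM in flox/flox and 31083 in ΔIEC animals on that day and no marker at 0. Of 6 enteroendocrine markers, 5 could be compared on Day 4 and 1 was at least 2-fold lower, the short transcript *Pyy*, which set the sums of 258 and 87.5 FPKM. The Paneth cell list held 6 genes, of which 5 could be compared on Day 4 and 4 were lower, all under 1000 nt, a class with 57.8% of genes lower, with sums of 2052 FPKM in flox/flox and 20.99 in ΔIEC animals, and *Mmp7* was at 0 in all 6 columns. Tuft cell markers summed to 3.34 and 2.22 FPKM and stem and cycling cell markers to 4.87 and 3.93 on Day 4. On Day 0 the tuft cell markers that could be compared, *Dclk1* (2.75 and 0.18 FPKM) and *Trpm5* (1.86 and 0.33), were at least 2-fold lower, beside 16.1% of all genes. Each of them reached 1 FPKM only in flox/flox animals. Among the immune markers, 7 of 10 were at 0 in flox/flox and 3 of 10 in ΔIEC animals on Day 4, the highest value being 2.88 FPKM for *Lyz2*, and 6 of 8 stromal markers were at 0 in both genotypes. The part of these differences in the values of the goblet cell genes was not tested.

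Other genes of the goblet cell pathway were taken from 3 lists of 32 genes in all. The list of goblet cell machinery holds 9 genes of mucin folding, granule release and goblet cell surface, all with at least 1 FPKM in either genotype on Day 4. Of these, 3 were at least 2-fold lower in ΔIEC animals (*Creb3l1*, *Lrrc26* and *Rep15*) and 3 were higher (*Hepacam2*, *Capn9* and *Ern2*), with a median of 0.19, beside the 26.1% of all genes that were lower and the 25.6% that were higher. *Creb3l1*, a stress-activated transcription factor of the endoplasmic reticulum, had 7.20 FPKM in flox/flox and 1.49 in ΔIEC animals, and *Hepacam2*, a goblet cell adhesion protein, had 6.45 and 22.6. *Ern2*, the goblet cell form of the unfolded protein sensor IRE1, had 4.09 and 9.45. On Day 0, 0 of the 9 were lower on the log2(FPKM + 1) scale, beside 16.1% of all genes, and 2 were higher, beside 13.5%. The higher genes included *Capn9*, a digestive-tract calpain, at 0.97 and 29.7 FPKM. By the FPKM ratio *Rep15* (5.67 and 11.6 FPKM) made it 3 higher, beside 21.8% of all genes. On Day 11, 3 were lower and 2 were higher on the log2(FPKM + 1) scale, beside 25.7% and 26.1%. By the ratio *Ern2* (4.41 and 9.73) and *Bcas1* (4.31 and 9.05) made it 4 higher, beside 34.1%.

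Of 13 other secreted products, 7 could be compared on Day 4, and 5 were at least 2-fold lower and 2 higher in ΔIEC animals, beside 26.1% and 25.6% of all genes. Of the lower genes, 4 are under 1000 nt, a class in which 57.8% of genes were lower. *Guca2a*, the guanylin precursor, had 33249 FPKM in flox/flox and 9202 in ΔIEC animals, and the antimicrobial ribonuclease gene *Ang4* had 3526 and 649. *Tff1* and *Tff2*, the other trefoil peptides, were at 2.25 and 2.67 FPKM in flox/flox animals and at 0 and 0.80 in ΔIEC animals. They could be compared only through their flox/flox values. *Clca4a* and *Clca4b*, relatives of *Clca1* in the same gene family, went the other way, at 2.11 and 63.9 FPKM for *Clca4a* and 0.74 and 8.98 for *Clca4b*. The gastric and airway mucins *Muc5ac*, *Muc5b* and *Muc6* stayed under 0.1 FPKM in every column. On Day 0, 4 of the 13 could be compared and 1 was lower, beside 16.1% of all genes. On Day 11, 3 of 7 were lower and 2 higher on the log2(FPKM + 1) scale, beside 25.7% and 26.1%. By the FPKM ratio 5 were lower on Day 11, with *Itln1* (6.34 and 2.88 FPKM) and *Tff2* (2.67 and 0.84) added, beside 31% of all genes.

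Among 10 lineage regulators, 7 could be compared on Day 4, of which 2 were at least 2-fold lower and 1 higher on the log2(FPKM + 1) scale, beside 26.1% and 25.6% of all genes. *Dll4*, a Notch ligand, at 0.13 and 1.01 FPKM, was also higher by the FPKM ratio. *Hes1*, the Notch target that opposes *Atoh1*, had 6.94 FPKM in flox/flox and 1.99 in ΔIEC animals. *Klf4*, a factor of goblet cell differentiation, had 9.65 and 3.94, and *Elf3*, an epithelial ETS factor, had 113 and 463. On Day 0, 1 of 9 was at least 2-fold higher on the log2(FPKM + 1) scale, *Notch1*, beside 13.5% of all genes, and 0 were lower, beside 16.1%. *Foxa2*, at 2.18 and 0.83 FPKM, was 2.64-fold lower by the ratio. Over all 3 lists and on the log2(FPKM + 1) scale, the 4 genes under 1000 nt that could be compared on Day 4 were all at least 2-fold lower, with a median of -1.78, beside 57.8% and a median of -1.28 for the whole class, and on Day 11 it was 3 of 4, with *Tff2* at a difference of -0.998. Of these 4, *Tff1* (2.25 and 0 FPKM on Day 4) and *Tff2* (2.67 and 0.80) passed the filter of 1 FPKM only through flox/flox animals. Their lower values were thus partly set by the filter. By contrast, of 19 genes of 1000 nt and longer 6 were lower and 6 higher, with a median of 0.19.

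**Figure D5:**
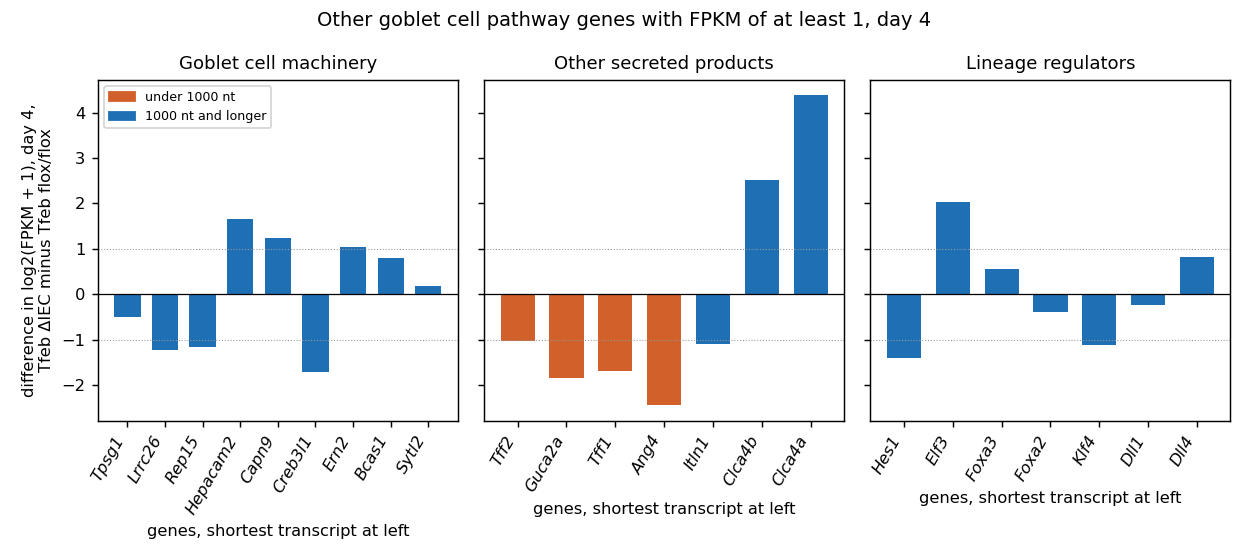
Difference between genotypes in log2(FPKM + 1) on Day 4 for the genes of the 3 pathway lists with at least 1 FPKM in either genotype, ordered by transcript length within each list and coloured by a length under (orange) or from (blue) 1000 nt, with dotted lines at a difference of 1 and of -1 on that scale. The 4 orange bars all lie below the lower dotted line, and the blue bars lie on both sides of 0. Of the orange bars, *Tff1* and *Tff2* reached 1 FPKM only in flox/flox animals.

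The genes with profiles most like those of *Muc2* and *Spink4* were sought among 2694 genes with a mean of at least 10 FPKM, by the root mean square distance over the 6 values after each gene was centred on its mean. Nearest to *Muc2* were *Dhx32* (0.33), *Rab7* (0.33) and *Calr* (0.44), all with higher values in ΔIEC animals on each day. *Calr*, for example, had 122 FPKM in flox/flox and 199.8 in ΔIEC animals on Day 0 and 46.4 and 206 on Day 4. Nearest to *Spink4* were *Slirp* (0.12), *Gm14303* (0.13) and *Gm10269* (0.14), and *Slirp* had 374 and 39.7 FPKM on Day 4. None of these 6 genes is in the goblet cell lists. Each lay nearer to its reference gene than the nearest member did, which was *Retnlb* for *Spink4* (0.19) and *Clca1* for *Muc2* (0.69). A nearer gene outside the members was likely from the start, since far more genes were searched than there are members and Day 11 nearly repeats Day 4. Genes are not independent replicates, and these distances are descriptions.

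Promoters of 5 of the 10 genes (*Muc2*, *Fcgbp*, *Agr2*, *Spdef* and *Atoh1*) were in the RefSeq table for GRCm38.p6. The 250 bases before the start site were searched on both strands for CAGCTG, an E-box of the kind bound by *Atoh1* and other basic helix-loop-helix factors, and for CACGTG, the E-box core of the sites bound by *Tfeb*; both words are palindromes and do not overlap. CAGCTG was found in 13.0% of 32851 promoters and in 2 of the 5 genes, *Fcgbp* and *Muc2*, which differed between genotypes in opposite directions and are shown for that reason. CACGTG was found in 6.02% of promoters and in none of the 5. Both sequences read 5′ to 3′ on the plus strand, at chr7:141690090-141690339 for *Muc2* and chr7:28070986-28071235 for *Fcgbp*, and capitals mark CAGCTG, whose first base lies 112 bases before the start site in *Muc2* and 208 in *Fcgbp*.
Muc2: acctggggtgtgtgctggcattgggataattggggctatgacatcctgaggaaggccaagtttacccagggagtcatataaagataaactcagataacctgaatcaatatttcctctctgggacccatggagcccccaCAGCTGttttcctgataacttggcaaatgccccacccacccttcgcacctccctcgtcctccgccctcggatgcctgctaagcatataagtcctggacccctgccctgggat
Fcgbp: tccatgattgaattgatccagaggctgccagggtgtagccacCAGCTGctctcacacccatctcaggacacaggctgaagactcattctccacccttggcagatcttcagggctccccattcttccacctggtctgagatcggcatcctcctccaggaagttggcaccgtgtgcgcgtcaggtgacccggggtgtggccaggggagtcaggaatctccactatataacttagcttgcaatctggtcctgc
A match describes letters in this window and shows no binding, and the start site of *Muc2* lies outside its deposited locus.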

How the data were processed

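Pooled FPKM values were available for colonic epithelial cells in 6 groups of 2 animals, grouped by the genotype and day of the labels. The authors prepared full-length cDNA with a variation of SmartSeq2, sequenced paired ends on a MiSeq, mapped the reads to mm10 with TopHat2 2.0.14 and compared genotypes by day with Cuffdiff 2.1.1. The annotation release is not given in the sources used here. The 3 deposited tables give 1 pooled FPKM value per gene, genotype and day, each day scaled separately. They also hold the authors' own fold changes, test statistics, p-values and q-values, which were not used. The status column was used only to find failed estimates.

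The 10 genes, the lists and the alternatives were chosen with earlier results of these data known. The named genes were the 10 members, *Tfeb*, the genes of the lists and the 3 genes most like *Muc2* and the 3 most like *Spink4*. Differences were computed in log2(FPKM + 1), with a pseudocount of 1 FPKM, over genes with at least 1 FPKM in either value. With 1 pooled value per group and unknown depth, no test, interval or detection floor was computed. Transcript length was the median over GENCODE M21 basic transcripts, matched for 47218 of 47632 genes, and the running median spanned 501 genes of at least 200 nt. Alternatives were pseudocounts of 0.1 and 5 FPKM, division by the column sum, centring on the median of all genes, subtraction of the running median, a threshold of 4-fold, and other filters. Leaving out *Fcgbp* or *Muc2*, the class of at least 500 FPKM and counts by the FPKM ratio were added after seeing the data. The running median was tested on simulated data. Python 3.11.15, numpy 2.4.6, pandas 2.3.3 and matplotlib 3.10.9 were used.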

Additional observations from a re-analysis of the deposited data

Results flagged for a closer look

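For 5 of the 10 genes the difference between Day 0 and Day 4 had opposite signs in the genotypes, as it had in 43.2% of the 8133 genes with at least 1 FPKM on either day in both genotypes and in 47.3% of the 1851 of these from 200 nt to under 1000 nt. *Spink4*, *Agr2* and *Retnlb* were higher on Day 4 in flox/flox animals and lower in ΔIEC animals, and the difference of the 2 differences in log2(FPKM + 1), ΔIEC minus flox/flox, was -2.58 for *Spink4*, -1.30 for *Agr2* and -1.95 for *Retnlb*. *Spdef* had the same signs, with -1.004, from 9.10 to 10.3 FPKM in flox/flox and from 22.9 to 12.4 in ΔIEC animals. *Clca1* had the opposite signs, with 1.17, from 581 to 432 FPKM in flox/flox and from 777 to 1298 in ΔIEC animals. The opposite signs of *Spink4* held under all 5 alternatives of scaling, pseudocount and length. Those of *Retnlb* were lost under division by the column sums and under centring (0.0114 and 0.00127 in ΔIEC animals), those of *Agr2* and *Spdef* under division by the column sums (-0.01 and -0.45 in flox/flox animals), and those of *Clca1* under the running median (0.03 in flox/flox animals). Each rests on 4 pooled values from tables normalized separately, and the difference was not tested.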

How the results depend on the processing

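The direction of the median difference between genotypes was the same under every alternative for the short transcripts and for the other 5 genes, on all 3 days. Subtraction of the running median over length moved the median of the short transcripts to -0.13 on Day 0, -1.56 on Day 4 and -1.65 on Day 11, and division by the column sum over genes of at least 200 nt moved it to -1.96 on Day 4 and -2.02 on Day 11. Division by the sum moved the median of the long transcripts and regulators to 1.91 on Day 4 and 1.99 on Day 11. For Day 4 against Day 0 in flox/flox animals, the short transcripts went to 1.25 under division by the sum and to 1.17 under the running median. The other 5 genes went to -1.11 and to 0.0334, the latter a change of sign. Their median includes *Fcgbp*, whose Day 0 row failed and which stood at 2.17 under the running median. The others were then at -1.25 for *Muc2*, -0.97 for *Atoh1*, 0.03 for *Clca1* and 0.36 for *Spdef*, so the change of sign depends on *Fcgbp*. In ΔIEC animals the median of the short transcripts changed sign to 0.0114 under division by the sum and to 0.00127 under centring. The count of genes at least 2-fold lower on Day 0 was 1 under the running median and 1 at 4-fold. The count of those higher was 1 on Day 0 with a pseudocount of 5 FPKM and 0 at 4-fold. On Day 4 it was 4 under division by the sum, 1 under the running median and 0 at 4-fold, and on Day 11 it was 4 under division by the sum. The cause was not tested beyond what each alternative does by its construction. Counted by the FPKM ratio, 3 members were higher on Days 4 and 11 in place of 2, and the share of all genes higher on Day 0 was 21.8% in place of 13.5%. Of the other alternative values, 81 stayed within 1.5-fold of the main value. For medians this means the same sign, and for counts it refers to the ratio of the 2 counts. The 81 include changes of pseudocount, which hardly move genes with high FPKM. For the background of all genes, the share at least 2-fold lower was 17.1% on Day 4 and 16.8% on Day 11 with no filter on low values and 39.9% and 39.5% at 10 FPKM, and the share higher was 16.8% and 17.1% with no filter. In the difference between genotypes, single genes changed sign in 1 setting each: *Agr2* and *Spink4* on Day 0 and *Spdef* on Day 11. Without *Fcgbp*, the median of the long transcripts and regulators on Day 0 was 0.91 in place of 0.58. For Day 4 against Day 0 it was -0.55 in place of -0.43 in flox/flox and -0.69 in place of -0.53 in ΔIEC animals. Without *Muc2*, the median of the long transcripts and regulators was 0.58 in place of 0.91 on Day 4 and 0.54 in place of 0.99 on Day 11. For Day 4 against Day 0 it was -0.13 in place of -0.43 in flox/flox and -0.05 in place of -0.53 in ΔIEC animals. These 2 values include *Fcgbp* through its failed Day 0 row, at 7.19 in ΔIEC animals. The other ΔIEC differences were 0.74 for *Clca1*, -0.84 for *Spdef* and -1.20 for *Atoh1*, so the -0.05 depends on that row. No paired analysis was possible because each group has 1 pooled column that carries no replicate, and leaving out an animal was not run for the same reason.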
